A study of Mus musculus with 34 samples.

Results

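Imprinted genes, which mammals read from only the maternal or only the paternal copy, were followed through maps of 2 histone marks in mouse embryonic stem cells. The set held 36 genes, from H19 and Igf2 to Zdbf2 and Cdh15. All 36 were found in the GENCODE M21 annotation of GRCm38. Every deposited region that overlapped a member's gene body, or the 5 kb on either side, was taken as a member region. This gave 273 of the 248336 regions in the list shared by 3 of the count tables. In the separate list used for H3K27ac in the separate lines it gave 121 of 96988. The genes were chosen by name, with earlier results of these data known.

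The study compared C57BL/6J (B6) and DBA/2J (D2) cells with congenic cells in which a segment of chromosome 13 was exchanged between the strains. H3K9me3, a mark of silenced chromatin, and H3K27ac, found at promoters and enhancers in use, were mapped by chromatin immunoprecipitation (ChIP-seq), the first in 16 libraries and the second in 18, each in 6 groups. The separate lines were B6 4-1, B6 4-4 and B6 5-1 against D2 2-9, D2 5-5 and D2 203, with 1 library per line and mark. The repeated libraries were technical replicates of 4 lines. These were B6 5-1, D2 5-5, B6-13D2 (line QJ 6-1, B6.D2-(rs30079041-rs51756099)/Bakr, with the D2 segment in a B6 background) and D2-13B6 (line XE 2-4, D2.B6-(rs29224292-rs13469455)/Bakr, with the B6 segment in a D2 background). The series' design text gives the end marker of the latter as rs51756099 instead. H3K9me3 had 3 repeated libraries of B6 and of D2-13B6 and 2 of D2 and of B6-13D2, and H3K27ac had 3 of each. Each repeated group was therefore a single line, whose spread is technical. B6 5-1 and D2 5-5 stood in both series, so the series do not hold independent lines. All cells grew in medium with serum, LIF (a cytokine that keeps stem cells undifferentiated), PD0325901 (a MEK inhibitor) and CHIR99021 (a GSK3 inhibitor), and no further treatment was given. The H3K9me3 antibody was Active Motif #39161 throughout. H3K27ac was taken with abcam #ab4729 in the separate lines and with Cell Signaling Technology #8173S in the repeated libraries, so H3K27ac levels were never compared between the series. No member lies on chromosome 13.

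Imprinting is set in the germ line. A differentially methylated region receives DNA methylation in the egg or in the sperm, and the methylated copy keeps it after fertilisation. In stem cells the methylated copy also carries H3K9me3, brought by the zinc finger protein ZFP57 and its partner KAP1 (Trim28) with the methyltransferase SETDB1, while the unmethylated copy can carry active marks such as H3K27ac. A start site of an imprinted gene may therefore hold both marks, on different copies. The counts here sum the copies, and the lines were inbred, so the copies cannot be told apart. Fewer cells with a mark and less mark per cell cannot be told apart either. Of the members, 21 belong to loci with methylation from the egg (among them Kcnq1ot1, Airn, Peg3, Snrpn, Mest and Plagl1) and 9 to loci with methylation from the sperm (H19 and Igf2, Meg3, Rian, Mirg, Dlk1 and Rtl1, Rasgrf1, and Zdbf2). The other 6 (Ndn, Magel2, Peg12, Cdkn1c, Phlda2 and Copg2) have no germline-methylated region in their own window here and are controlled from a neighbour. The maternal class held 211 of the 273 regions, the paternal class 43 and the last class 19. The region between Dlk1 and Meg3 that receives methylation in sperm lies mostly outside the window of Meg3 and is not described as such.

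The regions on which the H3K9me3 comparison turned are shown by 200 bases of GRCm38 from the plus strand. Each was read from the reference genome at the window with the most motif matches among those that overlapped no annotated untranslated exon. Capitals mark TGCCGC on either strand (GCGGCA on the strand shown), the hexamer ZFP57 binds when it is methylated. In the H19 window they mark GGNGGCAG on either strand, part of the motif of CTCF, the insulator protein that binds the unmethylated copy. TGCCGC can lie within a reverse match of the latter. The Slc38a4 window is shown for the largest rise among the 4 regions with more H3K9me3 in D2, and the other 3 are not shown.
Kcnq1ot1 start, chr7:143295608-143295807: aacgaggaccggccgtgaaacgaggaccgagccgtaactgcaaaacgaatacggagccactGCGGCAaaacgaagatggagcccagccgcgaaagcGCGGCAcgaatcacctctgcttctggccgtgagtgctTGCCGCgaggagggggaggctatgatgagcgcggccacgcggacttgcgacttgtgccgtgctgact
Airn start, chr17:12742193-12742392: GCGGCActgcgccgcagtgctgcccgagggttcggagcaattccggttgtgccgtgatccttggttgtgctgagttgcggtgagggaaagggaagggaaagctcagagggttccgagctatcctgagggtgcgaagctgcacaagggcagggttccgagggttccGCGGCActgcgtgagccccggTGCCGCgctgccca
Peg3 and Usp29 start, chr7:6730030-6730229: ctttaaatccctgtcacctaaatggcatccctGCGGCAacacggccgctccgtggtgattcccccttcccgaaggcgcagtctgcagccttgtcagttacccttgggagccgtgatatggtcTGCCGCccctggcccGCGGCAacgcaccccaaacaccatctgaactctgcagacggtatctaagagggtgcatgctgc
Plagl1 start, chr10:13091058-13091257: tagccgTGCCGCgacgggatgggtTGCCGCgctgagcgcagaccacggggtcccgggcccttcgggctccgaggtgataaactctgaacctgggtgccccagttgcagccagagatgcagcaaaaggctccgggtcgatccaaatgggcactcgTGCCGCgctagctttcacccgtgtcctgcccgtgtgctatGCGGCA
H19 upstream flank, chr7:142581753-142581952: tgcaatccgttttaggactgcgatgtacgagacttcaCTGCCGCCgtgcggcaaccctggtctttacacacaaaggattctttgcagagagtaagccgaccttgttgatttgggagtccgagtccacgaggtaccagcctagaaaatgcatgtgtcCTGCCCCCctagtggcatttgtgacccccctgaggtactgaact
Slc38a4 upstream flank, chr15:97060835-97061034: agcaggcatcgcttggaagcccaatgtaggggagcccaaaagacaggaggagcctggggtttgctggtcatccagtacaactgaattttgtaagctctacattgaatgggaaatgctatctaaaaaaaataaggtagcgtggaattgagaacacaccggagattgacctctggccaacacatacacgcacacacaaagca

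The Kcnq1ot1 window held 24 CpG dinucleotides and 3 matches of TGCCGC, and the Slc38a4 window held 4 CpG and 0 matches. In the whole regions, Airn and Peg3/Usp29 each had 8 matches and Plagl1 had 6. Over 300-base windows at the region centres, 10.6% of the 273 member regions held TGCCGC, against 5.84% of all regions. Within 1 kb of a start site the shares were 24.2% of 62 member regions and 13.5% of all such regions. The member start-site windows were also richer in CpG, with a median of 14 against 8. GGNGGCAG stood in 15% of member regions and 12.5% of all regions. A match describes the letters only.

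Total counts per library ran from 1487862 to 2559262 (H3K9me3) and from 15444270 to 18272793 (H3K27ac) in the separate lines. In the repeated libraries they ran from 1538145 to 2185977 and from 8735674 to 11543469. For H3K9me3, 66 of the 273 member regions passed the filter on low counts in the separate lines, and 110 in the repeated libraries. In the repeated H3K27ac groups, a pair of libraries of each line differed by no more than sampling noise and was counted as 1 sample, leaving n = 2 per line. D2-13B6 replicate 1 stood apart from its group in both marks, with a chi-square per degree of freedom of 2.81 to 3.28 against the other replicates. D2-13B6 also had more reads on chromosome 11, which holds Grb10 and Zrsr1 (7.86% to 8.38% of H3K9me3 counts, against 5.46% to 6.18% in the other repeated lines). D2 line 203 had 8.47% of its H3K27ac counts there, against 7.49% to 7.74% in the other separate lines. H3K27ac was summed over the start sites of markers in CPM (counts divided by each library's TMM-adjusted size). For 10 stem cell markers the sum was 1690 to 1897 CPM in the separate lines and 946 to 1379 CPM in the repeated libraries. Primitive endoderm markers summed to 14.1 to 17.9 CPM over 2 genes and 7.71 to 16.7 CPM over 5 genes, in the same order. Trophoblast markers summed to 73.4 to 86.9 CPM over 4 genes in the separate lines. Neither these nor the fibroblast and somatic markers were at 0 in any group. In the repeated libraries the B6 group had the lowest trophoblast sum (15.0 to 18.8 against 27.6 to 35.3 CPM), the lowest fibroblast sum (10.1 to 11.96 against 14.4 to 36.0 CPM) and the lowest stem cell sum (946 to 1075 against 1131 to 1379 CPM). Their part in the H3K27ac results below was not tested. The reference genome, mm10, is that of B6, and the part of sequence differences in the alignment of D2 reads was not tested.

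In the separate lines, 32 of 66 tested member regions carried less H3K9me3 in D2 than in B6. In all, 36 differed at an adjusted p under 0.05, the other 4 being higher in D2. This was 54.5% of the tested members. Over all regions 34.6% were called, 17.3% higher and 17.4% lower. The median log2 fold change of the members was -0.77, against 0.00 over all regions tested. Of the 36 called regions, 34 had no overlap between the 3 B6 and the 3 D2 libraries, as did 93.8% of all called regions. The called regions lay in 23 of the 31 genes with a tested region. Summed over all 273 member regions, H3K9me3 was 1400 to 1642 CPM in the B6 lines and 843 to 911 CPM in the D2 lines.

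Loci methylated in the egg held 30 of the 32 lower regions and 78.8% of the regions tested. Of 52 such regions tested, 30 were lower and 3 higher in D2, with a median log2 fold change of -1.4. Of 9 regions at loci methylated in sperm, 2 were lower and 1 higher, with a median of -0.12. None of the 5 regions of genes without a germline mark was called, and their median was 0.69. Within 1 kb of a start site, 17 of 30 regions were lower and 1 was higher (median -1.48), and farther away 15 of 36 were lower and 3 higher (median -0.49). No share over all start-site regions was set beside these counts, so they may not be particular to the members.

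Kcnq1ot1 is a paternally expressed noncoding RNA that silences its neighbours on the same chromosome, and its start lies in the methylated region of the Kcnq1 domain. Its region, chr7:143295040-143297376, held 34.8, 25.7 and 19.9 CPM of H3K9me3 in the B6 lines and 3.29, 3.29 and 2.42 CPM in the D2 lines. Every D2 line was far below every B6 line. The log2 fold change was -3.02 ± 0.30 (SE, adjusted p = 8.66e-11). Impact, which restrains the translation regulator GCN2, had at its start (chr18:12971836-12974847) 50.01, 25.0 and 38.5 CPM in B6 and 2.82, 5.84 and 5.80 CPM in D2. The groups did not overlap, and the fold change was -2.85 ± 0.27. Nnat, which encodes a small membrane proteolipid, lies within an intron of another gene and showed the lowest fold change among the members, -3.36 ± 0.53 at chr2:157560982-157561981. Its B6 lines held 15.2, 8.56 and 6.83 CPM and its D2 lines 1.88, 0.731 and 0 CPM, so this estimate rests on few reads. Inpp5f, an inositol phosphatase gene, fell by 3.02 ± 0.43 at chr7:128690070-128690777, from 15.9, 9.22 and 13.7 CPM to 2.82, 1.10 and 0.483 CPM. Nap1l5, a nucleosome assembly gene, fell by 3.28 ± 0.58 in its flank at chr6:58903205-58903654, from 9.42, 5.93 and 8.69 CPM to 0.469, 0 and 1.93 CPM. The regions of this paragraph were picked for the largest changes without overlap between the groups, so their separation follows from the choice.

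Further start sites of this class were chosen for description after their values were seen, from those called lower. Of the 24 start-site regions tested in this class, 16 were lower. The Igf2r start, both tested starts of Grb10 and another start each of Usp29, Plagl1, Inpp5f and Gnas had no call, from -0.65 to 0.49, and a further Gnas start was higher in D2. Airn, the antisense RNA that silences Igf2r, held 50.01, 31.0 and 38.5 CPM in B6 and 7.51, 6.21 and 3.87 CPM in D2 at its start (chr17:12739645-12743164), a log2 fold change of -2.65 ± 0.25. At the shared start of Peg3, a zinc finger gene, and Usp29 (chr7:6726759-6731328), B6 held 56.5, 42.2 and 33.5 CPM and D2 held 10.3, 10.2 and 8.70 CPM, and the change was -2.07 ± 0.22. Mest, which encodes a hydrolase-like protein, had the highest B6 level of these, 80.5, 46.1 and 31.7 CPM at chr6:30736141-30740002, against 13.6, 11 and 4.83 CPM in D2. No D2 line reached the lowest B6 line at any of the 3 starts. Zrsr1, a splicing factor retrogene, changed by -2.60 ± 0.28 and Plagl1, a zinc finger growth regulator, by -2.50 ± 0.34. The regions over and beside the start of Snrpn, a gene of the Prader-Willi domain, changed by -2.05 ± 0.29 and -2.40 ± 0.32. Nespas, the antisense RNA of the Gnas locus, changed by -1.80 ± 0.30. At the shared start of Peg10 and Sgce, genes of a common imprinted promoter, the change was smaller, -0.73 ± 0.23 (adjusted p = 0.0109), and the libraries overlapped (34.8, 29.6 and 16.1 CPM against 12.7, 17.2 and 15.0 CPM).

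**Figure D1:**
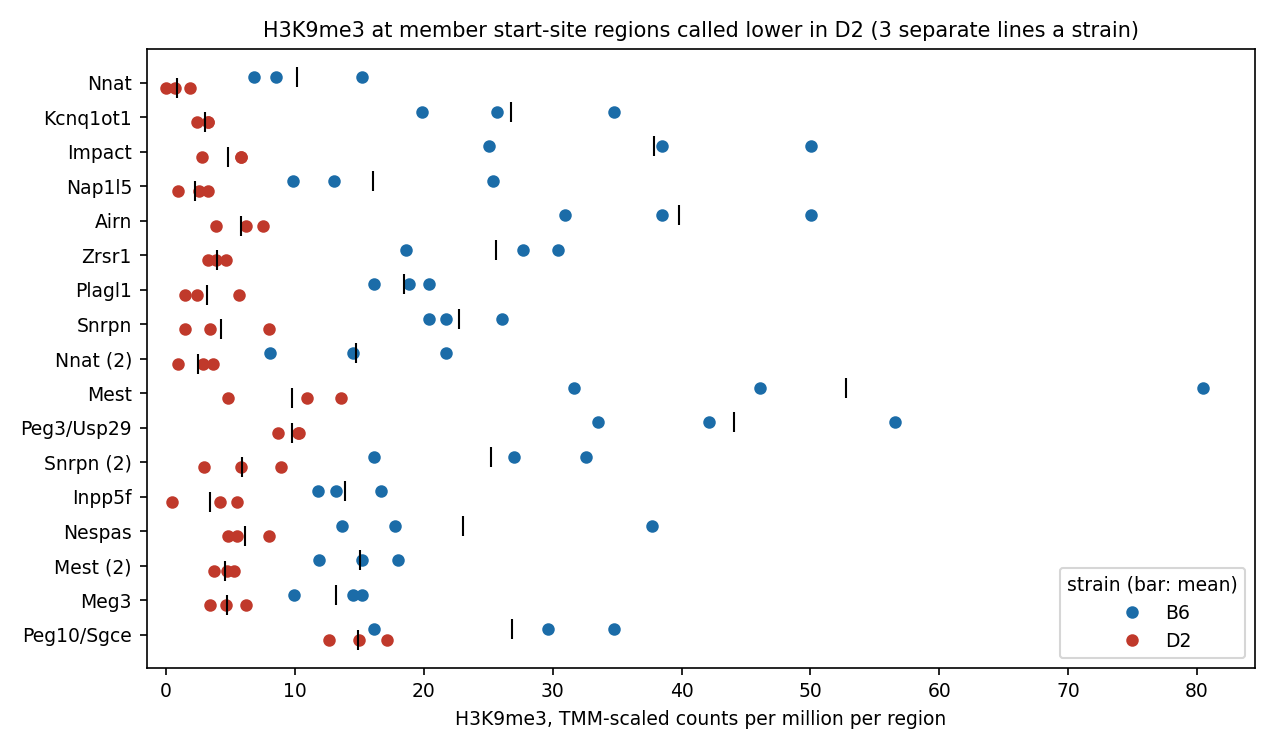
H3K9me3 of the separate lines at the member regions within 1 kb of a start site that were called lower in D2. Each point is 1 line in CPM per region, the bar is the mean of 3 lines, and a number in brackets marks a further region of the same gene; the D2 points lie below the B6 points at every region shown except the shared start of Peg10 and Sgce.

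H3K9me3 in D2 was not lower everywhere. In the flank of Slc38a4, an amino acid transporter gene, the region chr15:97060433-97061436 held 0, 1.32 and 2.48 CPM in B6 and 9.39, 8.04 and 7.73 CPM in D2, a log2 fold change of 2.67 ± 0.51. The groups were apart, and this region lay at -4978 bases from the nearest annotated start. An Airn intron at chr17:12802094-12802850 was higher by 1.12 ± 0.28, the start of Gnas (the stimulatory G protein subunit) at chr2:174326908-174328246 by 1.12 ± 0.34 with overlapping lines, and a Rtl1 coding exon by 0.84 ± 0.31. Airn and Gnas thus held regions called in both directions.

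At the loci methylated in sperm, the flank upstream of H19 (chr7:142580024-142582212, where CTCF separates H19 from Igf2) held 47.1, 23.7 and 26.7 CPM in B6 and 15.5, 11.3 and 11.6 CPM in D2. The log2 fold change was -1.25 ± 0.23 (adjusted p = 3.02e-05). Meg3, the noncoding RNA of the Dlk1 domain, had 15.2, 14.5 and 9.94 CPM in B6 and 4.69, 6.21 and 3.38 CPM in D2 at chr12:109542545-109544105, a change of -1.33 ± 0.32. The other tested Meg3 regions had no call, with -1.06 ± 0.49 at the start chr12:109540732-109541235 (adjusted p = 0.0909, overlapping lines) and -0.12 ± 0.24 in a further region. The called changes at H19 and Meg3 were each smaller than that at Kcnq1ot1, but the difference between regions was not tested. Rasgrf1, a nucleotide exchange factor gene, had 3 tested regions and none was called, with changes from -0.24 to 0.11. For Zdbf2, the tested region gave 0.09 ± 0.31.

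No region of the genes without a germline mark passed the test. Ndn and Peg12, neighbours of Snrpn, each gave -0.14, with standard errors of 0.29 and 0.30. Magel2 gave 0.84 ± 0.38 (adjusted p = 0.0837) and Cdkn1c, an inhibitor of cell division in the Kcnq1ot1 domain, 0.81 ± 0.33 (adjusted p = 0.0544). Phlda2 gave 0.69 ± 0.42. Among the maternal class, Grb10, a growth factor adaptor, had 3 tested regions between -0.35 and 0.10 and Igf2r's start gave -0.65 ± 0.29 (adjusted p = 0.0756), neither past the threshold. Igf2, Rian, Mirg, Dlk1 and Copg2 had too few H3K9me3 counts to test in these lines.

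Among the 32 member regions with lower H3K9me3 in D2, 34.4% held TGCCGC at their centre, against 14.7% of the 34 members tested and not lower. Over all regions lower in D2 the share was 5.14%, and over all those tested it was 6.19%. For GGNGGCAG the shares were 9.38% and 14.7% of the same member groups. These shares were not tested and the groups differ in CpG (median 9 and 5).

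H3K27ac in the same lines was called at more member regions as higher than as lower in D2. All 121 member regions were tested and 64 were called, 47 higher and 17 lower, which is 52.9%. Over all regions 49.3% were called, 24.3% higher and 25.0% lower, so the share called was near the background and the split between directions was not. The median was 0.22, against -0.01 over all regions. Within 1 kb of a start site 29 of 47 regions were higher and 6 lower, with a median of 0.46. That count has no share over all start-site regions beside it and may not be particular to the members. The summed level was 1675 to 1787 CPM in B6 and 2003 to 2059 CPM in D2. The called regions lay in 26 of the 32 genes that had a region in this list. The D2 lines also had more H3K27ac at markers of somatic lineages (14.7 to 16.6 against 9.75 to 10.95 CPM over 4 genes) and of primitive endoderm (17.3 to 17.9 against 14.1 to 15.2 CPM over 2 genes), without overlap, while the stem cell, trophoblast and fibroblast sums overlapped. Their part in these counts was not tested.

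Airn showed the largest rises. A broad intronic region at chr17:12789269-12795918 held 13.5, 14.5 and 13.3 CPM in B6 and 37.0, 43.6 and 42.9 CPM in D2, a log2 fold change of 1.59 ± 0.09 (adjusted p = 1.73e-22). The groups were apart. A shorter region at chr17:12805998-12807146 rose by 1.73 ± 0.23 from 0.684, 1.26 and 1.58 CPM to 3.66, 3.25 and 4.72 CPM. All 6 Airn regions were higher in D2, including the start (1.11 ± 0.10). The start of Nap1l5 rose by 1.48 ± 0.16, with 2.34, 2.83 and 2.85 CPM in B6 and 8.22, 7.17 and 6.97 CPM in D2. A Peg3 coding exon (chr7:6709770-6711946) rose by 1.37 ± 0.17, with 2.40, 2.83 and 2.53 CPM against 6.87, 7.77 and 5.36 CPM. At Kcnq1ot1 the region over the start held 32.5, 32.0 and 33.3 CPM in B6 and 55.6, 54.6 and 53.1 CPM in D2, with little spread within a strain and a rise of 0.74 ± 0.07. Every one of these regions separated the 3 B6 from the 3 D2 lines. The Airn regions given with levels, Nap1l5 and Peg3 were picked by a rule that required this. Of the 64 called member regions 56 had no overlap, as did 93.1% of all called regions.

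The 17 regions with lower H3K27ac in D2 lay in 8 genes. Slc38a4 had 6 of its 13 regions lower and 0 higher, from -0.76 to -0.35. Sgce, which encodes a sarcoglycan, had 4 of 8 lower, led by -0.62 ± 0.19. Igf2, the growth factor opposite H19, had a weak intronic region at chr7:142665238-142665538 with 0.798, 1.51 and 1.20 CPM in B6 and 0.385, 0.276 and 0.346 CPM in D2. Its change, -1.78 ± 0.44, was the lowest among the members. Grb10 had 2 lower regions, and Usp29, Kcnq1ot1, Plagl1 and Phlda2 had 1 each. H19, Cdh15, Ndn, Peg12, Cdkn1c and Copg2 had regions in this list and no call. Rian, Rtl1, Rasgrf1 and Magel2 had none.

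When each H3K9me3 region of the separate lines was set beside the H3K27ac region overlapping it, 50 pairs could be compared. In 23 pairs (46.0%) H3K9me3 was lower and H3K27ac higher in D2, against 8.57% of the 25117 such pairs over all regions. H3K9me3 was lower and H3K27ac also lower in 4 pairs, and H3K9me3 was lower with no H3K27ac call in 5. H3K27ac alone was higher in 7 pairs and lower in 2, both were without a call in 7, and H3K9me3 was higher with no H3K27ac call in 2. The regions of the 2 lists differ in length, so a pair does not compare identical intervals.

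The repeated libraries allowed the same regions to be followed in 4 lines. For H3K9me3, D2 against B6 gave 24 calls among 110 member regions (21.8%), and all 24 were lower in D2. Over all regions 11.4% were called and 6.99% were lower. The median log2 fold change of the members was -0.16, against 0.02 over all regions. None of the 24 overlapped between the groups, nor did 98.8% of all called regions. By class, 21 of 79 regions methylated in the egg, 3 of 19 methylated in sperm and 0 of 12 without a germline mark were lower. Of 63 member regions tested in both series, 18 were lower in D2 in both, 13 only in the separate lines and 4 only in the repeated libraries. The 13 gave -1.66 to 0.21 in the repeated libraries. Among them were 2 of the 5 regions with the largest changes in the separate lines, the Nap1l5 flank and the Inpp5f region at chr7:128690070-128690777, each at -1.66 here. The Nap1l5 start gave -0.64, the Inpp5f start -1.13 and the Peg10/Sgce start 0.01. The 4 regions higher in the separate lines had no call here. The Slc38a4 flank, with the largest rise there, gave 0.09, the Gnas start 0.38, the Rtl1 exon 0.33 and the Airn intron 1.08. These counts share the lines B6 5-1 and D2 5-5.

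The lowest changes in D2 lay at Plagl1 and Snrpn. A Plagl1 intron, chr10:13087069-13087654, held 6.29, 8.13 and 4.19 CPM in B6 and 0 in both D2 libraries, which makes D2 at least 6.91-fold lower against a floor of 3 counts over its libraries. Another Plagl1 intron (chr10:13071088-13071448) held 9.95, 7.05 and 8.38 CPM in B6 and 1.87 and 0.510 CPM in D2, and changed by -2.78 ± 0.59. The intronic Snrpn region chr7:60005980-60007477 held 12.1, 13.6 and 11 CPM in B6, 12.8 and 9.39 in B6-13D2, 1.86, 1.86 and 2.17 in D2-13B6 and 1.87 and 0.510 in D2. The D2-background lines were low and the B6-background lines high there, and D2 against B6 gave -3.30 ± 0.53. H13, a signal peptide peptidase gene, fell by 2.38 ± 0.42 at chr2:152685965-152687881 from 17.3, 18.4 and 11 CPM in B6 to 1.87 and 3.57 CPM in D2. A Sgce 3'-end region (chr6:4673665-4674361) changed by -2.39 ± 0.59. At Cdh15, a cadherin gene, a coding-exon region (chr8:122864654-122865386) held 26.2, 18.4 and 22.5 CPM in B6 and 6.86 and 2.04 CPM in D2 (-2.33 ± 0.36).

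Kcnq1ot1's start held 23.1, 23.3 and 26.2 CPM of H3K9me3 in B6, 25.1 and 20.3 in B6-13D2, 8.70, 8.82 and 9.53 in D2-13B6 and 5.61 and 6.62 in D2. H3K27ac at the same region held 16.1, 17.0 and 17.1 CPM in B6, 19.6 to 25.4 in B6-13D2, 45.9 to 48.3 in D2-13B6 and 39.7 to 44.1 in D2. Both B6-background lines were apart from both D2-background lines, above them in H3K9me3 and below them in H3K27ac. The D2 against B6 changes were -1.89 ± 0.32 for H3K9me3 and 1.29 ± 0.14 for H3K27ac. At the Peg3 and Usp29 start, H3K9me3 was 52.9, 50.4 and 36.1 CPM in B6, 34.9 and 38.6 in B6-13D2, 9.75 to 16.5 in D2-13B6 and 11.2 and 12.2 in D2. H3K27ac there was 34.9 to 39.5, 43.5 to 44.8, 74.6 to 84.7 and 69.1 to 81.2 CPM in the same order of lines. Impact held 24.1, 29.8 and 31.4 CPM of H3K9me3 in B6, 19.1 and 26.2 in B6-13D2, 5.59 to 8.23 in D2-13B6 and 8.11 and 6.12 in D2. Its H3K27ac ran the other way, from 51.2 to 53.0 CPM in B6 to 84.2 to 89.7 in D2 and 89.7 to 109 in D2-13B6.

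Mest, Zrsr1 and the loci methylated in sperm were followed in the same 4 lines. Mest's start (chr6:30736141-30740002) held 57.1, 40.1 and 38.2 CPM of H3K9me3 in B6, 35.9 and 36.6 in B6-13D2, 21.7, 17.2 and 19.9 in D2-13B6 and 11.2 and 12.7 in D2. Each line was apart from the next, in that order. Its H3K27ac ran from 8.20 to 9.40 CPM in B6 through 11.2 to 12.6 in B6-13D2 to 19.1 to 20.9 in D2 and 25.1 to 25.6 in D2-13B6. Zrsr1 differed in that B6 stood alone for H3K9me3, with 17.3 to 26.0 CPM against 5.10 to 11.9 CPM in the other 3 lines, which overlapped. Its H3K27ac was 26.4 to 29.3 CPM in B6, 33.7 to 40.0 in B6-13D2, 43.3 to 51.5 in D2 and 60.7 to 63.9 in D2-13B6, the line with more chromosome 11 reads.

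Upstream of Meg3 (chr12:109538598-109539913) H3K9me3 held 20.4, 20.1 and 22.5 CPM in B6, 20.1 and 15.8 in B6-13D2, 9.32, 8.82 and 9.53 in D2-13B6 and 8.73 and 5.10 in D2, and D2 against B6 gave -1.56 ± 0.32. The lines split by background. In the separate lines the same region gave -0.12 ± 0.24 and was not called, and the difference between the series was not tested. The H19 flank (chr7:142580024-142582212) held 25.1, 29.8 and 24.6 CPM in B6, 27.5 and 33.1 in B6-13D2, 13.7, 13.5 and 12.6 in D2-13B6 and 17.5 and 10.7 in D2. Its D2 against B6 change was -0.87 ± 0.27 (adjusted p = 0.0164). H3K27ac at the H19 flank changed by 0.17 (adjusted p = 0.722), and at the Slc38a4 flank by -0.37 (adjusted p = 0.258), neither past the threshold.

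**Figure D2:**
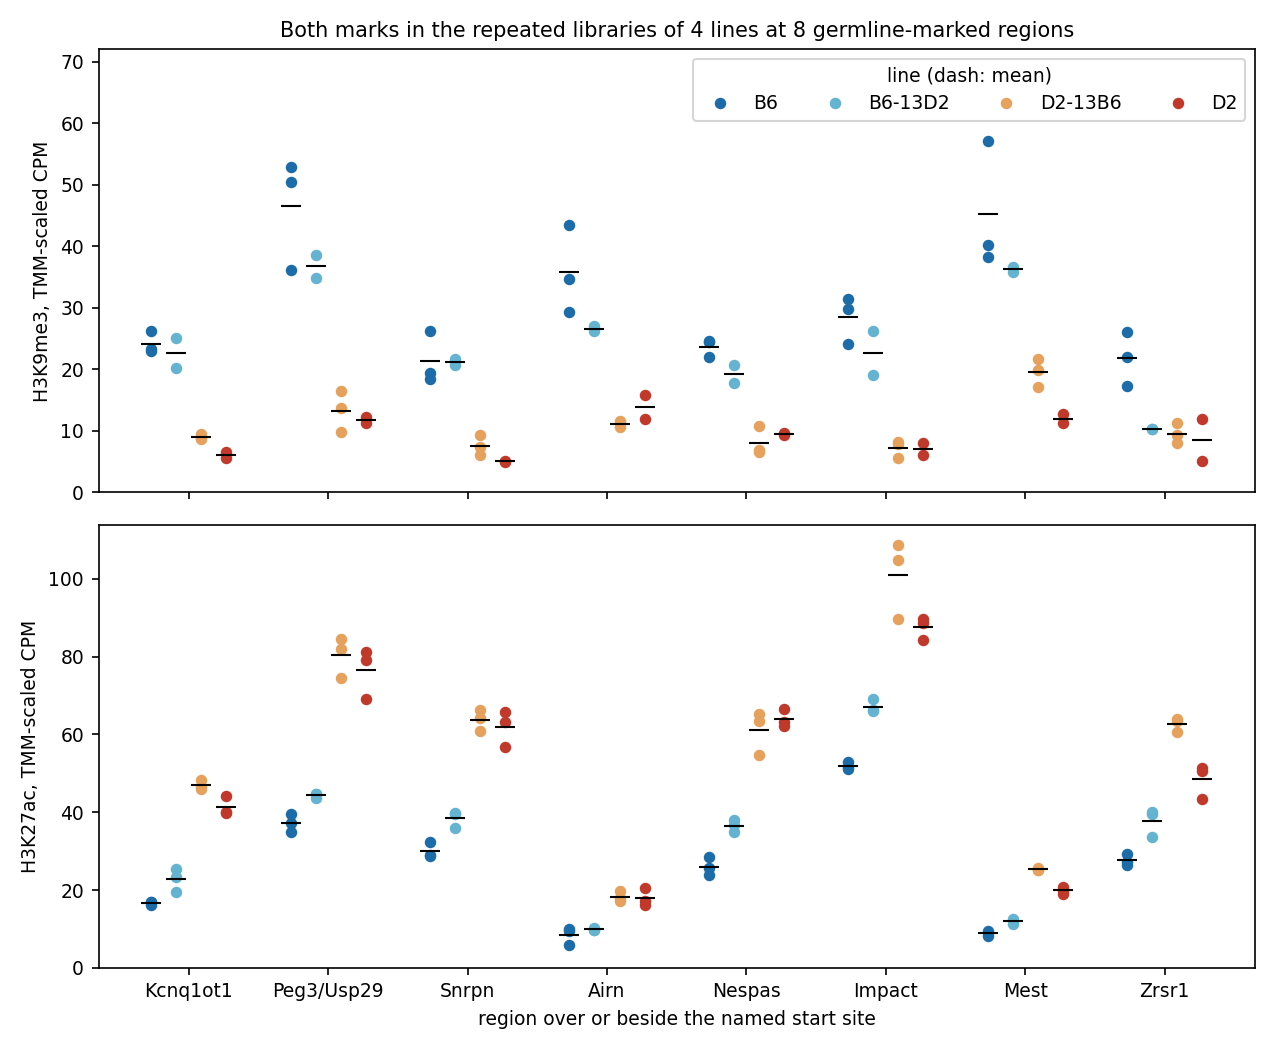
H3K9me3 (upper panel) and H3K27ac (lower panel) in CPM per region at 8 regions of loci methylated in the egg, chosen after their values were seen. Each point is 1 library of a line and the dash is the mean of the line's libraries; in all 8 regions both D2-background lines lie below B6 in H3K9me3 and above it in H3K27ac.

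H3K27ac in the repeated libraries gave 59 calls among 215 member regions for D2 against B6, 44 higher and 15 lower. That is 27.4%, against 28.1% over all regions, with 14.7% higher and 13.4% lower. DESeq2 gave 39 calls. Start-site regions were higher in 24 of 55 cases and lower in 2, with a median log2 fold change of 0.63. Here too no share over all start-site regions was set beside the count, so it may not be particular to the members. Meg3 rose by 2.18 ± 0.33 at chr12:109540732-109541235, from 0.797, 0.965 and 0.546 CPM in B6 to 4.22, 2.88 and 3.60 CPM in D2. The Airn intron at chr17:12790440-12793118 rose by 2.16 ± 0.15, from 11.1, 11.2 and 15.2 CPM to 59.3, 52.7 and 62.9 CPM. An Inpp5f intron (chr7:128671817-128673220) rose by 1.67 ± 0.30. The weak flank of Igf2 (chr7:142667632-142668214) changed by -2.34 ± 0.70 and an exon of Kcnq1ot1 far from its start (chr7:143254758-143255324) by -1.87 ± 0.39. These regions were picked by a rule that required no overlap between the groups. Of the 59 called member regions 58 met it, as did 97.5% of all called regions. Slc38a4 again had 5 regions lower and 0 higher.

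Among the 94 member regions tested for both marks, 14 (14.9%) had lower H3K9me3 and higher H3K27ac in D2 than in B6. Over all 78531 regions tested for both, the share was 1.7%. Lower H3K9me3 came with no H3K27ac call in 6 and with lower H3K27ac in 0. H3K27ac alone was higher in 15 regions and lower in 4, and 55 had no call in either mark. Among regions with lower H3K9me3, H3K27ac was higher in 70.0% of the 20 member regions and in 24.8% of all such regions.

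**Figure D3:**
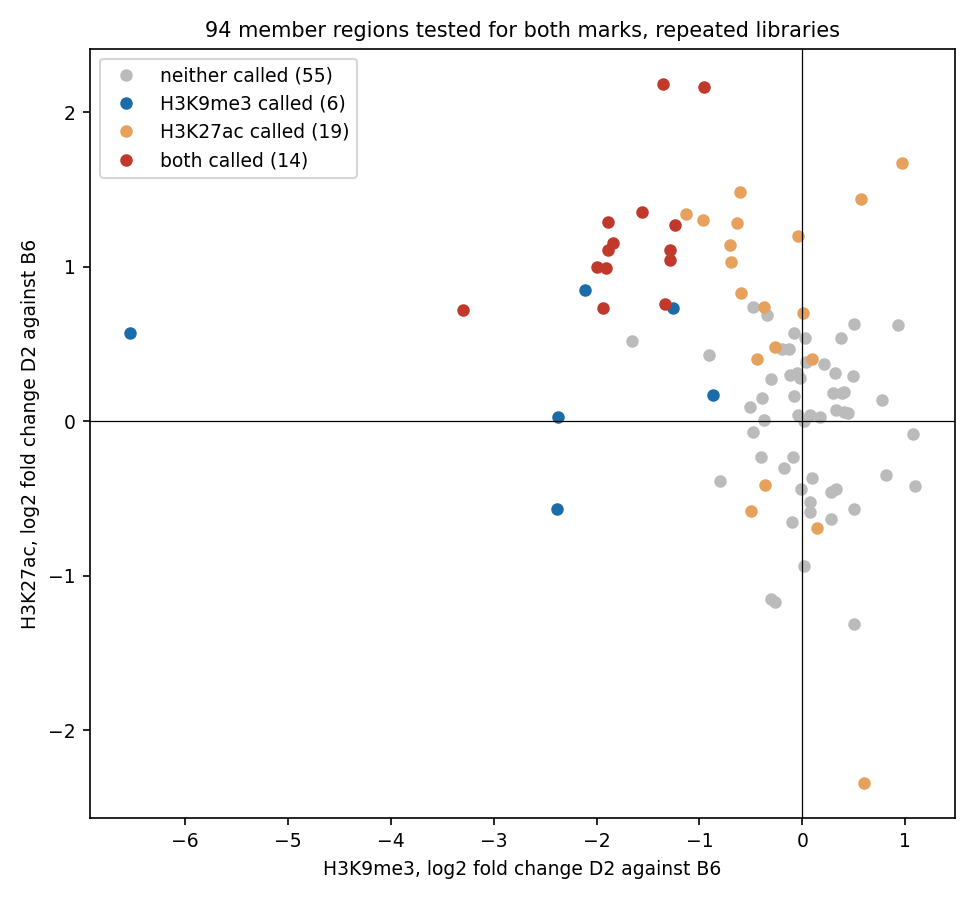
Log2 fold change of D2 against B6 in the repeated libraries, H3K9me3 on the horizontal and H3K27ac on the vertical axis, for the 94 member regions tested for both marks. Each point is a region coloured by the marks called; the 14 regions called for both all lie in the upper left of the plot, with lower H3K9me3 and higher H3K27ac in D2.

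Lines that differed in the chromosome 13 segment were compared within each background. Each was a single line, so the segment and the line cannot be told apart in any of these comparisons. In B6 background, B6-13D2 against B6 gave 4 H3K9me3 calls among 110 member regions, 3 lower and 1 higher, which is 3.64% against 1.68% over all regions. H13 fell by 2.07 ± 0.38 at the region above, to 3.93 and 3.46 CPM. Nnat (chr2:157560982-157561981) fell by 2.00 ± 0.40, with 13.6, 10.8 and 14.1 CPM in B6 and 0.982 and 5.44 CPM in B6-13D2. Zrsr1 (chr11:22971058-22973521) fell by 1.08 ± 0.28, with 22.0, 26.0 and 17.3 CPM in B6 and 10.3 and 10.4 CPM in B6-13D2. A Rasgrf1 intron (chr9:89927461-89928026) rose by 1.33 ± 0.37, from 3.14, 6.51 and 4.19 CPM to 11.8 and 11.9 CPM. Libraries were apart in all 4 regions, as in 99.7% of all called regions. The count fell to 1 without replicate 1 of B6-13D2, and to 2 without replicate 2 of B6-13D2 or replicate 1 of B6, and with DESeq2 it was 1. Leaving out either B6-13D2 library left that line with 1 sample, which was assumed, here and below, to vary like the other lines. In D2 background, D2 against D2-13B6 gave 0 H3K9me3 calls by edgeR, with 10 regions at an unadjusted p under 0.05 and 0 by DESeq2, and over all regions 2.17% were called. The difference between these 2 contrasts gave 0 calls by edgeR and 0 by DESeq2, with 9 at an unadjusted p under 0.05, and 0.364% over all regions.

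For H3K27ac, B6-13D2 against B6 gave 41 calls among 215 regions (19.1%), 37 higher and 4 lower, against 13.0% over all regions and 7.6% higher. Of the 37, 35 were at loci methylated in the egg, which made up 82.3% of the 215 regions. The count was 27 without B6 replicate 3, which left B6 with 1 sample, and 25 with DESeq2. The largest were at Sgce (chr6:4739598-4740428), which rose by 1.77 ± 0.31 from 1.10, 1.06 and 1.42 CPM to 4.61, 3.87 and 3.91 CPM. The Inpp5f intron rose by 1.53 ± 0.30, a Plagl1 intron (chr10:13125531-13126579) by 1.41 ± 0.21 and the Gnas and Nespas region chr2:174287295-174289828 by 1.4 ± 0.15, from 9.56, 10.6 and 10.8 CPM to 30.5, 25.2 and 28.3 CPM. Igf2's flank changed by -2.37 ± 0.66. D2 against D2-13B6 gave 2 calls (0.93%), both Plagl1 regions higher in D2, against 6.67% over all regions. The count was 1 with RLE factors, 0 with no filter or with DESeq2, 7 with library totals and 15 with the pairs of libraries not summed, with or without a replicate block. The 2 regions were chr10:13116743-13117872 (0.58 ± 0.18) and chr10:13118020-13119269 (0.71 ± 0.21), the former with 9.38, 7.97 and 8.66 CPM in D2 and 5.87, 5.53 and 5.84 CPM in D2-13B6. The count was 6 without D2 replicate 3 and 4 without D2-13B6 replicate 3 or B6 replicate 1. It was 4 without D2-13B6 replicate 1 and 0 without D2 replicate 2, B6 replicate 3 or B6-13D2 replicate 2, fits that each left a line with 1 sample.

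The H3K27ac difference between lines with the D2 and the B6 segment was itself different in the 2 backgrounds at 18 of 215 member regions (8.37%), all with the more positive value in B6 background, while 5.3% of all regions were called and 3.93% in that direction. All 18 were at loci methylated in the egg, which held 177 of the 215 regions. Sgce led with a difference of 2.09 ± 0.44 at chr6:4739598-4740428 and 1.64 ± 0.35 at chr6:4737947-4739321. At the latter, B6 held 1.69, 2.03 and 3.28 CPM and B6-13D2 6.58, 6.47 and 5.33 CPM, while D2-13B6 held 4.87, 2.77 and 4.46 CPM and D2 4.11, 3.21 and 3.04 CPM. Only the B6-background lines were apart there. Grb10 had 5 of the 18, led by 1.63 ± 0.47 at chr11:11962642-11962944, 1.55 ± 0.41 at chr11:11967393-11967908 and 1.54 ± 0.37 at chr11:11939541-11940020. Chromosome 11 as a whole gave a median of 0.20 in this difference, and D2-13B6 had more counts there. The part of that shift in the Grb10 and Zrsr1 values was not tested. The count was 10 without D2 replicate 2, and without D2-13B6 replicate 1, the library that stood apart, it was 32, of which 4 were negative. Each of these fits left a line with 1 sample. With the pairs of libraries not summed it was 35, and 34 with a replicate block as well.

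**Figure D4:**
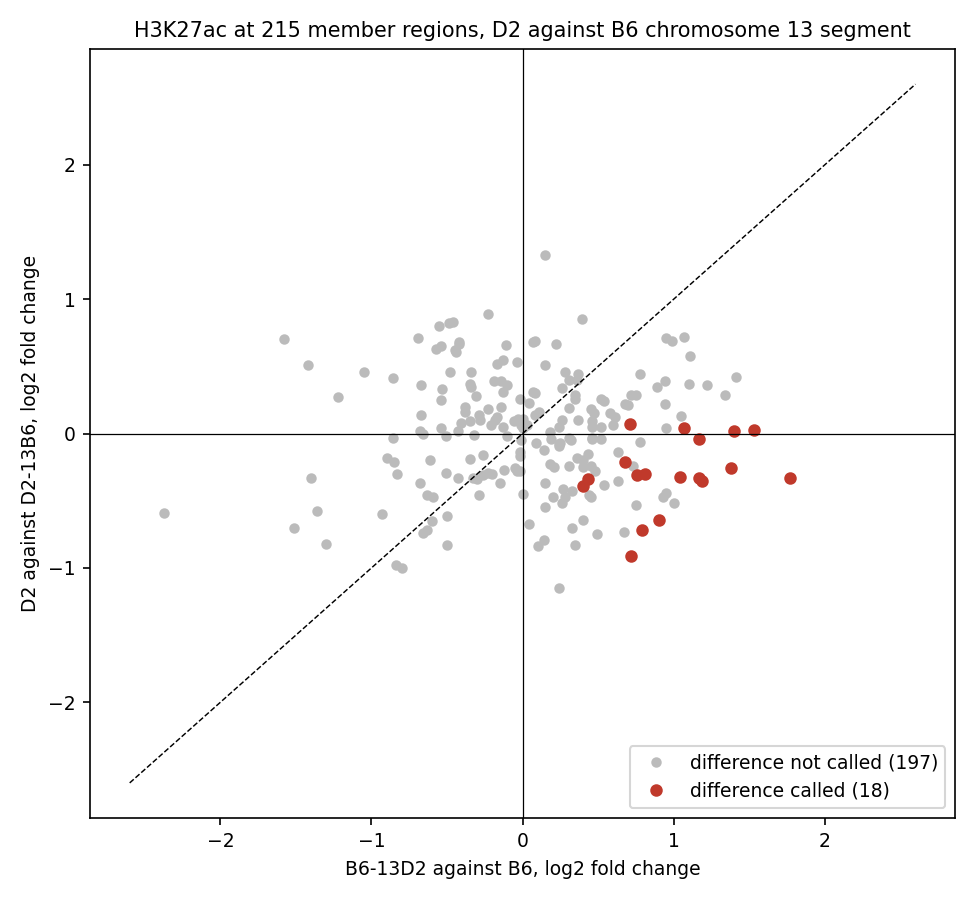
H3K27ac log2 fold change between lines with the D2 and the B6 segment at 215 member regions, in B6 background on the horizontal axis (B6-13D2 against B6) and in D2 background on the vertical axis (D2 against D2-13B6). Each point is a region and the dashed line marks equal values; the 18 regions called for the difference lie below it, where the value was more positive in B6 background.

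Lines with the same segment and different backgrounds were compared after the data had been seen. With the D2 segment in both, D2 against B6-13D2 gave 15 H3K9me3 calls among 110 regions, all lower in D2, against 8.25% called and 5.51% lower over all regions. The median log2 fold change of the members was 0.00, against 0.02 over all regions. The count was 9 without D2 replicate 2, which left 1 D2 library, and 7 with DESeq2. Kcnq1ot1 changed by -1.78 ± 0.34, Impact by -1.60 ± 0.34, Peg3/Usp29 by -1.55 ± 0.28, Mest by -1.5 ± 0.28 and H19's flank by -1.05 ± 0.28. With the B6 segment in both, D2-13B6 against B6 gave 30 calls, 29 lower and 1 higher, against 20.9% called and 12.2% lower over all regions, and DESeq2 gave 17. Kcnq1ot1 changed by -1.25 ± 0.25, Peg3/Usp29 by -1.64 ± 0.21, Impact by -1.77 ± 0.26 and the Airn start by -1.51 ± 0.23, and the Airn intron at chr17:12802094-12802850 was the region higher (1.29 ± 0.35). These comparisons share D2 and B6 libraries with those above. H3K9me3 summed over the 273 regions was 1458 to 1567 CPM in B6, 1256 to 1375 in B6-13D2, 1084 to 1154 in D2-13B6 and 1094 to 1106 in D2. D2-13B6 and D2 overlapped and the other lines were apart.

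For H3K27ac, D2 against B6-13D2 gave 70 calls (32.6%), 34 higher and 36 lower, against 26.1% over all regions, 13.1% in each direction. An Airn intron (chr17:12806547-12806935) rose by 2.38 ± 0.48 and the region at chr17:12790440-12793118 by 1.92 ± 0.15, while a Plagl1 intron (chr10:13125531-13126579) changed by -1.99 ± 0.23 and the 3' end of Sgce by -1.79 ± 0.26. A weak Cdkn1c flank rose by 1.69 ± 0.54. Without B6-13D2 replicate 2, with 1 sample of that line left, the count was 45, and with DESeq2 it was 38. D2-13B6 against B6 gave 71 calls (33.0%), 51 higher and 20 lower, and DESeq2 gave 43. Over all regions 30.3% were called, 17.2% higher and 13.1% lower. The Airn intron rose by 2.11 ± 0.15, Meg3 by 1.89 ± 0.34, Inpp5f by 1.64 ± 0.30 and a Plagl1 intron (chr10:13063341-13063824) by 1.70 ± 0.38, and Igf2's flank changed by -1.75 ± 0.63. H3K27ac summed over the member regions was 1106 to 1227 CPM in B6 and 1431 to 1605 CPM in the other lines, so B6 was the lowest line.

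A region was said to carry a mark in a line when its CPM per kb was in the top 25% of all 248336 regions there, and both marks when it passed for each. No member region carried both marks in all 4 lines, whereas 6890 of all regions did (2.77%). Within a line, 13 member regions (4.76%) carried both in B6, 10 (3.66%) in B6-13D2, 5 (1.83%) in D2-13B6 and 5 (1.83%) in D2. Over all regions the shares were 6.32%, 5.8%, 6.53% and 6.32%. H3K9me3 alone or with the other mark was in the top 25% at 89, 71, 60 and 59 member regions in B6, B6-13D2, D2-13B6 and D2, and H3K27ac at 62, 78, 77 and 82. In all 4 lines 31 member regions (11.4%) carried H3K9me3 and 49 (17.9%) carried H3K27ac, near the 12.8% and 15.7% of all regions.

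The start-site regions of Kcnq1ot1, Peg3/Usp29, Nespas and Impact, a pair of regions at Snrpn and the Airn intron at chr17:12790440-12793118 carried both marks in B6 and in B6-13D2 and H3K27ac alone in D2-13B6 and in D2. H13 and Zrsr1 carried both in B6 and H3K27ac alone in the other lines. Peg10/Sgce carried both in B6-13D2 and H3K9me3 alone elsewhere. Gnas differed, with an intronic region of 156 bases (chr2:174319175-174319330) that carried both in B6, D2-13B6 and D2. Its regions chr2:174315444-174315812 and chr2:174345593-174345928 carried both in D2, and chr2:174345200-174345552 carried both in B6 and D2. The Meg3 start (chr12:109540732-109541235) carried H3K9me3 alone in B6, both in B6-13D2 and D2-13B6 and H3K27ac alone in D2. In total 20 member regions (7.33%) carried both marks in at least 1 line, against 11.1% of all regions. The count of 0 depends on the threshold. With the top 50% it was 14 member regions (5.13%, against 8.89% over all regions). Ranking by CPM per region, which favours long regions, gave 25 (9.16%, against 5.62%), so the members went from below to above the share of all regions.

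Levels per kb placed the members far apart. The highest H3K9me3 in B6 was at a Cdh15 coding exon (chr8:122865492-122865780), with 47.6 ± 7.58 CPM per kb (SD, n = 3), 32.4 ± 4.98 in B6-13D2 (n = 2), 18.8 ± 9.44 in D2-13B6 (n = 3) and 8.92 ± 2.64 in D2 (n = 2). D2-13B6 and D2 did not differ beyond their spread in this order. Igf2, whose lead region is its flank (chr7:142667632-142668214), held 17.6 ± 4.45 CPM per kb in B6, 26.6 ± 5.25 in B6-13D2, 17.5 ± 5.23 in D2-13B6 and 25.8 ± 4.35 in D2. Rtl1, a retrotransposon-derived gene, held 18.5 ± 1.65 in B6 and 22.2 ± 1.14 in D2. Dlk1, a transmembrane ligand gene, held 5.64 ± 1.16 in B6 and 5.55 ± 0.521 in D2. Peg12 had the lowest lead level in B6, 2.08 ± 0.988. For H3K27ac the lead regions of Sgce (25.2 ± 4.58 CPM per kb in B6), Plagl1 (25.0 ± 3.06), Usp29 (24.3 ± 3.54) and Grb10 (23.1 ± 1.90) were highest in B6, with n = 2, and did not differ beyond their spread. Nap1l5 (0.789 ± 0.0241), Ndn (0.843 ± 0.301), H19 (0.902 ± 0.00355) and Igf2 (0.956 ± 0.0749) were lowest. Rian, Mirg, Magel2 and Rtl1 stayed between 0.637 and 2.36 CPM per kb in every line, and Copg2, the neighbour of Mest, ran from 4.45 to 7.23.

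The factors that keep imprints and a further set of imprinted genes were read the same way. Among 19 maintenance genes, 23 regions were tested for H3K9me3 in the separate lines, 4 higher and 4 lower in D2, a share of 34.8% against 34.6% over all regions. Trim28 at its start rose by 1.4 ± 0.25 and Zfp445, a partner of Zfp57 in imprint maintenance, changed by -1.58 ± 0.33. H3K27ac in the repeated libraries gave 28 higher and 39 lower of 173 regions in D2 against B6, 38.7% against 28.1% over all regions. The median log2 fold change of the 173 was -0.23, against -0.05 over all regions. The starts named next are a part of the list and do not stand for it. At the starts, Zfp57 changed by 0.22 ± 0.13 (adjusted p = 0.201), Trim28 rose by 0.68 ± 0.12, Setdb1 by 0.57 ± 0.15 and Dnmt1, the maintenance DNA methyltransferase, by 0.55 ± 0.13. Dnmt3a, a de novo methyltransferase, was lower in the line with the D2 segment in both backgrounds: B6-13D2 against B6 gave -1.08 ± 0.13 and D2 against D2-13B6 gave -1.78 ± 0.13. Its start held 13.7 CPM per kb in B6, 6.61 in B6-13D2, 20.4 in D2-13B6 and 6.01 in D2. Dnmt3l, its cofactor, rose by 1.06 ± 0.13 in D2 against B6 and gave -0.09 ± 0.14 in B6-13D2 against B6. Among 28 other imprinted genes, 54 regions were tested for H3K9me3 in the separate lines, 5 higher and 10 lower (27.8%), with a median of -0.06 against 0.00 over all regions. In H3K27ac of the separate lines they had 30 higher and 36 lower of 158 (41.8%, against 49.3% over all regions).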

How the data were processed

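The authors deposited 4 tables of raw counts per region, with duplicate reads removed per the file headers. Fixed chromatin was cut with micrococcal nuclease, per the labels' protocols. The submitters' processing notes name mm10, Trimmomatic 0.39, HISAT2 2.2.1, MACS 1.4.2, bedtools 2.9.2 and edgeR, with no roles. Columns were matched to 34 libraries by name, and 2 value columns that matched none were not used. Gene windows came from GENCODE M21. Counts were tested on each whole table with edgeR 4.0.16 (quasi-likelihood F-test, TMM factors, R 4.3.3), after a filter at a minimum count of 10 and a total of 15. p-values were adjusted by Benjamini-Hochberg over the table and called under 0.05. Scripts were tested on simulated data. Levels are CPM, with library sizes adjusted by TMM. Pairs of H3K27ac libraries whose counts agreed within sampling noise were summed. Named regions are, per comparison, up to 5 called regions with the largest change and no overlap between groups, each member's region with the highest CPM per kb, and the maintenance genes' start regions. Others were named after their values were seen. Members and lists were chosen with earlier results of these data known. DESeq2 1.42.0, RLE factors, library totals, no filter, a replicate block, summing and leaving out each library were the alternatives. For named changes the median of the chromosome was also subtracted. Separate lines were taken as replicates of a strain, and repeated libraries, of 1 line each, measure technical spread. Their p-values measure only the spread between libraries.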

Additional observations from a re-analysis of the deposited data

Results flagged for a closer look

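In 18 member regions the H3K27ac difference between lines with the D2 and the B6 segment of chromosome 13 differed between the backgrounds by edgeR's interaction test (adjusted p under 0.05, n = 2 per line after summing). Each value is B6-13D2 against B6 minus D2 against D2-13B6, on the log2 scale. In Sgce it was 2.09 ± 0.44 at 4739598 on chromosome 6, 1.64 ± 0.35 at 4737947, 1.51 ± 0.35 at 4732826 and 0.64 ± 0.19 at 4677106. The first of these was 1.77 in B6 background and -0.33 in D2 background. The promoter shared by Peg10 and Sgce (4746543) gave 1.21 ± 0.25. In Grb10 it was 1.63 ± 0.47 at 11962642 on chromosome 11, 1.55 ± 0.41 at 11967393, 1.54 ± 0.37 at 11939541, 1.36 ± 0.20 at 11940804 and 1.11 ± 0.20 at 11942258. Chromosome 11 gave a median of 0.20 in the same difference. In Usp29 it was 1.51 ± 0.24 at 6759506 and 1.07 ± 0.28 at 6955293 on chromosome 7. The Inpp5f intron (128671817) gave 1.5 ± 0.39 and the Gnas and Nespas region (174287295) gave 1.38 ± 0.21. Plagl1 (13089899) gave 1.02 ± 0.26, Snrpn (60005980) 0.90 ± 0.24, Zrsr1 (22971058) 0.79 ± 0.19 and Mest (30736141) 0.77 ± 0.21. In B6 background 16 of the 18 regions were called higher in the line with the D2 segment, and in D2 background 0 of the 18 were called.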

How the results depend on the processing

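Among 56 named changes, 332 of 344 results under alternatives that kept all libraries were unchanged, 12 lost the threshold and 0 reversed. The 344 include each change minus the median of its chromosome, which was judged by direction alone and could not lose the threshold. Results without an adjusted p were left out. Without single libraries the counts were 521, 31 and 0 of 552. The counts of called regions moved more. With DESeq2, H3K27ac of the repeated libraries gave 25 for B6-13D2 against B6, 39 for D2 against B6, 38 for D2 against B6-13D2, 43 for D2-13B6 against B6 and 0 for D2 against D2-13B6. H3K9me3 gave 1, 7 and 17 for B6-13D2 against B6, D2 against B6-13D2 and D2-13B6 against B6, and 2 for the first with no filter. H3K27ac of D2 against D2-13B6 gave 1 with RLE factors, 7 with library totals, 0 with no filter, and 15 with the pairs not summed. Same-numbered libraries correlated at -0.065 to 0.0871 in 3 tables and at -0.0545 to 0.156 in repeated H3K9me3, highest for D2 and D2-13B6 replicate 1, so the numbers were not taken as pairs; with a replicate block (libraries not summed) that count was 15 and the difference between backgrounds gave 34, against 35 with the pairs not summed. The block gave 36 and 64 in the separate lines, as before, and moved no other count past 1.5 times. Both marks in all 4 lines gave 14 regions at the top 50% and 25 ranked by CPM per region. Leaving out single libraries gave 52 to 62 (H3K27ac) and 37 to 41 (H3K9me3) in the separate lines. In the repeated libraries some of these fits left a line with 1 sample, assumed to vary like the other lines. In repeated H3K27ac it gave 27 to 57 (B6-13D2 against B6), 46 to 73 (D2 against B6), 45 to 84 (D2 against B6-13D2), 0 to 6 (D2 against D2-13B6), 53 to 76 (D2-13B6 against B6) and 10 to 32 (difference). In repeated H3K9me3 it gave 1 to 4, 16 to 27, 9 to 17, 0 to 0, 25 to 33 and 0 to 0. Regions with lower H3K9me3 and higher H3K27ac numbered 10 to 16, and regions with both marks in 4 lines 0 to 1. The causes of these shifts were not tested. For H3K9me3 in the separate lines, 66 of the 273 member regions had counts high enough to test.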
